A study of Mus musculus with 30 samples.

Results

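The regions described here are 685 bins of 100 nt that were called as carrying N6-methyladenosine (m6A) after wild-type METTL14 was put back into knockout cells, although neither the parental wild-type cells nor the knockout had the call. A bin was taken as new when the same bin, on the same strand, was listed in 2 or 3 of the 3 peak lists of the wild-type rescue and was missing from all 6 lists of wild-type and knockout cells. The 15 lists held 62091 distinct bins in all, and 12139 of them were in 2 or 3 lists of the wild-type rescue, so that the new bins made up 5.64% of those. The members were chosen by the presence or absence of a call in these lists, and all values of these 9 lists are given as a description, with no test. The lists of the other 2 rescue lines took no part in the choice.

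All cells were mouse embryonic stem cells of the C57BL/6 strain, kept undifferentiated with leukemia inhibitory factor. The lines were the wild type (WT), the Mettl14 knockout (KO), and the knockout carrying METTL14 again, either unchanged (KO+WT) or as an arginine mutant named 5RK or 13RK (KO+5RK, KO+13RK). The 3 rescue lines thus share the deletion of the endogenous gene. The sources used here give neither how the protein was put back nor whether a line is 1 clone. Each line had 3 immunoprecipitated libraries with a peak list each, and 3 input RNA libraries that were not analysed here. The lists held 22202 to 23143 distinct bins in WT, 6323 to 8585 in KO, 14172 to 17162 in KO+WT, 11165 to 13001 in KO+5RK and 9581 to 10964 in KO+13RK. For a pair of lists of a line, the bins in both lists as a share of those in either (Jaccard index) ranged from 0.448 to 0.450 in WT, 0.261 to 0.300 in KO, 0.359 to 0.374 in KO+WT, 0.304 to 0.334 in KO+5RK and 0.290 to 0.299 in KO+13RK. Read depth per bin is unknown, so a bin that is not listed is a missing call and not an absence of m6A, and a call can be missing where the transcript is scarce.

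METTL14 binds RNA and holds METTL3, the catalytic subunit of the enzyme complex that methylates adenosines in messenger RNA. The mark sits mostly in a short motif around the letters GGAC, often in long exons and near the stop codon, and reader proteins use it to set the stability and translation of the transcript. The C-terminal tail of METTL14 is disordered, is rich in arginines and glycines, and is methylated by a protein arginine methyltransferase.

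Sequence could be read only where a bin lay in a RefSeq promoter window (250 bases before to 50 after a gene start, GRCm38.p6) or over a miRNA hairpin. Of the 685 bins, 10 touched such a window on their own strand, 4 of them with their whole length. The letters GGAC were present in the covered part of 3 of the 10 bins, and GTCC, the same motif read on the other strand, in 4. Of 98553 promoter stretches of 100 bases, 30.6% held GGAC and 30.9% GTCC. The covered parts of the 10 bins ran from 20 to 100 bases, so these shares are not matched in length. The 4 GGAC sites are shown because they are the motif letters inside new bins that can be read here, with GGAC in capitals, 5′ to 3′ on the strand of the bin. Most of each window lies before the annotated gene start, so a site need not be in the annotated transcript.
Gm28037, in the Zbtb11 promoter window, chr16:55973641-55973664, plus strand: tgtctgctgaGGACccccgtatct
Mov10, chr3:104818272-104818295, minus strand: ggaggggataGGACgaagagaccg
Trmt61b, upstream site, chr17:71598511-71598531, minus strand: atcgtcgGGACccggttgtct
Trmt61b, downstream site, chr17:71598434-71598457, minus strand: gagatccggaGGACcagagcggag
Zbtb11 encodes a zinc finger transcription factor, Mov10 an RNA helicase, and the Trmt61b entry is a long noncoding RNA in the RefSeq table. Both Trmt61b sites lie in the 250 bases before the RefSeq gene start, so outside the annotated transcript. The bin of Gm28037 was in 2 KO+WT lists, with enrichment values of 3.26 and 2.68, and in no mutant list. The bin of Mov10 had 2.03 and 1.78 in 2 KO+WT lists and 1.88 in 1 KO+13RK list. The bin of Trmt61b had 1.31 and 1.23 in 2 KO+WT lists and was in no mutant list. The enrichment value is the authors' own score, and its scale is not given.

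Another 2 new bins lay over annotated miRNA hairpins, which are shown whole because the hairpin fills most of the bin, with GGAC in capitals where present.
Mir6409 hairpin, chr10:76008926-76009017, plus strand: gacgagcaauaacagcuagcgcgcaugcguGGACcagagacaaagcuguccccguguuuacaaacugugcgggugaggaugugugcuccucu
Mir6975 hairpin, chr17:35244075-35244135, plus strand: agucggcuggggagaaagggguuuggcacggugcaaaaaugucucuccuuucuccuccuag
Of the 1005 mouse hairpins in RefSeq, 24.5% hold GGAC. The Mir6409 bin had enrichment values of 2.60, 2.01 and 1.70 in KO+WT, 1.35 and 2.61 in 2 KO+5RK lists, and 1.67, 3.08 and 2.61 in KO+13RK. The Mir6975 bin had 1.51 and 1.50 in 2 KO+WT lists, 1.39 and 1.69 in 2 KO+5RK lists, and no call in KO+13RK. The libraries were made from fragmented messenger RNA, so a call over a hairpin reports the RNA of that locus, not the mature miRNA.

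The new bins were listed in fewer KO+WT lists, and with a larger p, than other bins. Of the 685, 602 (87.9%) were in exactly 2 KO+WT lists and 83 (12.1%) in all 3, while 48.8% of all bins in 2 or 3 KO+WT lists were in exactly 2. Replicates 1 and 2 alone shared 211 of them, replicates 1 and 3 shared 145, and replicates 2 and 3 shared 246. They were set beside the 7326 rescued wild-type bins, which were in 2 or 3 KO+WT lists, in 2 or 3 WT lists and in no KO list. Of these, 42.8% were in exactly 2 KO+WT lists. By the authors' p, a new bin had a median percentile of 31.1, 35.9 and 30.8 in KO+WT replicates 1 to 3, where 100 would be the smallest p of a list. A rescued bin had 64.9, 67.7 and 64.9. By enrichment value the order was the other way round, with median percentiles of 67.6, 67.5 and 65.2 for new bins and 48, 45.6 and 47 for rescued bins. A typical new bin thus had a high enrichment value and a modest p. Its median enrichment value was 1.61, 1.59 and 1.56 in the 3 lists, against 1.33, 1.29 and 1.31.

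Values on either side of the rule were as follows. A further 6042 bins were in a single KO+WT list and in no WT or KO list, and they appeared in 6.45% ± 0.332 of their number per KO+5RK list and 5.41% ± 1.04 per KO+13RK list (SD, n = 3). Another 924 bins met the rule except for a call in exactly 1 WT list, and 318 except for a call in 1 or more KO lists. The same kind of bin existed in the mutants, where 549 of the 9258 bins in 2 or 3 KO+5RK lists (5.93%) and 454 of the 7219 in 2 or 3 KO+13RK lists (6.29%) were in no WT and no KO list. In the reverse direction, 4889 bins were in 2 or 3 WT lists and in no KO+WT and no KO list.

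Fewer of the new bins than of all bins in 2 or 3 KO+WT lists were called again in the arginine mutants. Of the 685, 321 (46.9%) were in none of the 6 mutant lists, against 13.1% of all bins in 2 or 3 KO+WT lists. The other 364 (53.1%, against 86.9%) were in 1 or more, with 173 in 1 list, 106 in 2, 47 in 3, 25 in 4, 9 in 5 and 4 in all 6. The share in all 6 was 0.584%, against 17.9%. In 2 or 3 KO+5RK lists were 94 new bins (13.7%, against 55.3%), and in 2 or 3 KO+13RK lists 79 (11.5%, against 44.1%). The background holds bins with WT or KO calls, which the rule takes out of the new bins. Lower shares of new bins could therefore be foreseen, and nothing about the mutants is read from them. Both mutants had a call for 122 new bins, KO+5RK alone for 137 and KO+13RK alone for 105. In 2 or 3 lists of both mutants were 30. These joint counts were not made for all bins in 2 or 3 KO+WT lists, so the overlap is not read as a trait of the new bins.

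KO+5RK lists called 18.5%, 20.4% and 14.9% of the new bins, and KO+13RK lists 13.7%, 15% and 18.8%. The groups overlapped, with means of 18% ± 2.82 and 15.9% ± 2.65 (SD, n = 3 lists per line) and a difference of 2.09 percentage points in favour of KO+5RK. That difference was within the spread between lists (two-sided exact permutation test, p = 0.5, adjusted p = 0.5 over 9 tests; the smallest p for 3 lists against 3 is 0.1), and 6 of the 9 pairs of lists had its direction. With every list cut to its 6323 bins of smallest p, the difference was -1.87 points (exact permutation p = 0.5).

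Rescued wild-type bins were called in 64.6%, 61% and 52.3% of their number in the KO+5RK lists and in 45.2%, 42.6% and 50.7% in the KO+13RK lists. No mutant list called a larger share of new than of rescued bins, and the 2 sets of values did not overlap. Over the 6 mutant lists the new bins were called in 16.9% ± 2.7 and the rescued bins in 52.7% ± 8.65, a difference of -35.8 percentage points (two-sided exact sign-flip permutation test over 6 lists, p = 0.0312, the smallest possible; adjusted p = 0.0352), lower in 6 of 6 lists. For rescued bins the mean was 59.3% ± 6.31 in KO+5RK and 46.1% ± 4.12 in KO+13RK (exact permutation p = 0.1, n = 3 per line). The share of new bins divided by that of rescued bins was 0.302 ± 0.0284 in KO+5RK and 0.343 ± 0.0351 in KO+13RK, a difference that did not pass (exact permutation p = 0.2, n = 3 per line). Rescued bins were chosen for calls in WT lists and new bins for having none, so the sets already differed in how readily a bin is called. A lower share of new bins could therefore be foreseen, and nothing about the mutants is read from it. The labels do not say whether replicates were separate cultures, so these p-values speak for the spread among the sequenced libraries alone.

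**Figure D1:**
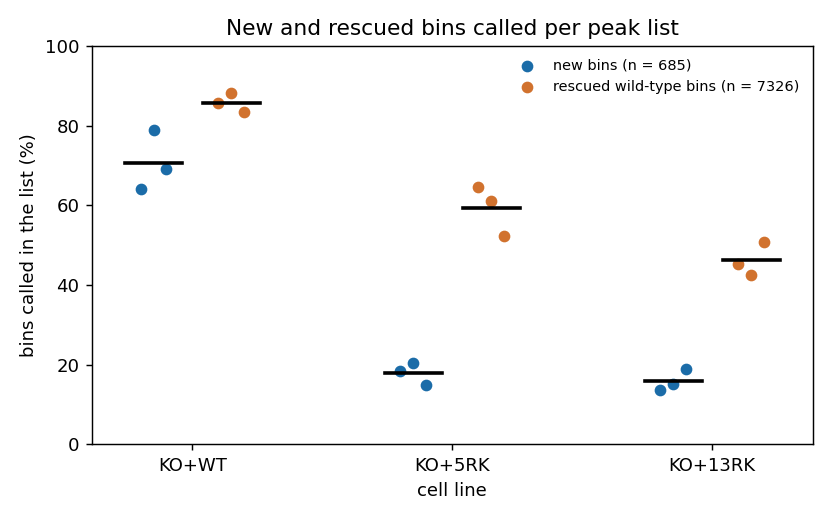
Share of bins (%, y axis) called in each peak list of the 3 rescue lines (x axis), with a point per list and a bar for the mean of 3 lists. New bins sit between 13.7% and 20.4% in the mutant lists and rescued wild-type bins between 42.6% and 64.6%; the KO+WT points are set by the way both sets were chosen.

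New bins that were called in a mutant had higher enrichment values there than rescued bins. The median enrichment percentile of new bins was 55.8, 53.5 and 49.1 in the KO+5RK lists and 53.2, 54.6 and 55.7 in the KO+13RK lists. Rescued bins had 46.5, 43.6 and 43.8, and 45.8, 44.4 and 44.2. The new bins were higher in 6 of 6 lists, by 8.95 percentile points on average (53.7 ± 2.49 against 44.7 ± 1.16, exact sign-flip permutation p = 0.0312, adjusted p = 0.0352). This call was lost with all 3 KO+WT lists required (4.45 points, permutation p = 0.188), at a q of 0.005 or less (5.36 points, permutation p = 0.0625) and without KO+WT replicate 2 (7.18 points, permutation p = 0.0625). It was 5.09 points at equal list length and 21.7 points with no WT or KO bin within 500 nt (permutation p = 0.0312 for both). Only called bins have a value here, and new bins already had the higher enrichment percentiles in the KO+WT lists. A higher value in the mutant lists could therefore be foreseen, and nothing about the mutants is read from it.

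The mutant calls followed the number of WT lists that held the bin. Among bins in 2 or 3 KO+WT lists and no KO list, KO+5RK lists called 18% ± 2.82 of the 685 bins in no WT list and 29.5% ± 3.35 of the 924 in 1 WT list. They called 40.3% ± 4.27 of the 1554 in 2 WT lists and 64.4% ± 6.86 of the 5772 in 3 (SD, n = 3 lists). In KO+13RK the shares were 15.9% ± 2.65, 24% ± 3.07, 29.6% ± 3.48 and 50.6% ± 4.31. The new bins were the low end of this order in both mutants. Bins in more WT lists are bins that are more readily called. The order could therefore be foreseen, and nothing about the mutants is read from it. With support in KO+WT held at exactly 2 lists, KO+5RK called 15.7% ± 2.83 of the new bins and 44.6% ± 6.92 of those in 3 WT lists. At exactly 3 lists it called 34.1% ± 3.68 of the 83 new bins and 75.4% ± 6.83. Over the 6 mutant lists, new minus rescued bins came to -20 points at exactly 2 KO+WT lists and -36.2 points at exactly 3 (exact sign-flip permutation p = 0.0312 and adjusted p = 0.0352 for each, lower in 6 of 6 lists).

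**Figure D2:**
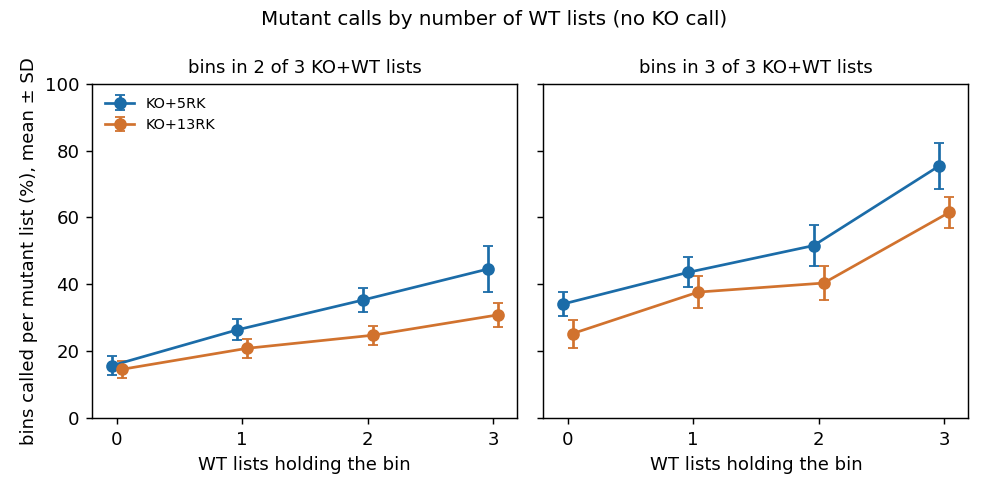
Bins called per mutant list (%, y axis; points are means of 3 lists and bars are SD) by the number of WT lists that held the bin (x axis), for bins in 2 KO+WT lists (left) and in 3 (right). At 0 WT lists, which are the new bins, KO+5RK stands at 15.7% and 34.1% and KO+13RK at 14.6% and 25.3%, below each point for bins with WT calls.

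Bins were also compared within 4 classes of the mean p percentile over the KO+WT lists that held them, an alternative added after the data were seen. The classes are of equal size over all bins in 2 or 3 KO+WT lists and no KO list. The weakest class held 55.6% of the new bins, the next 30.1%, the next 11.2% and the strongest 3.07%. From weakest to strongest, new minus rescued bins came to -18.4, -22, -32.2 and -45.8 percentage points over the 6 mutant lists (exact sign-flip permutation p = 0.0312 and adjusted p = 0.0352 for each). Within a class both sets were still chosen by their WT calls, so a negative sign could again be foreseen. These tests, like those split by KO+WT lists, repeat the contrast of all new and rescued bins and are not separate evidence. In the strongest class only 21 new bins remained, of which KO+5RK lists called 34.9% ± 14.5 and KO+13RK lists 27% ± 14.5 (SD, n = 3).

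**Figure D3:**
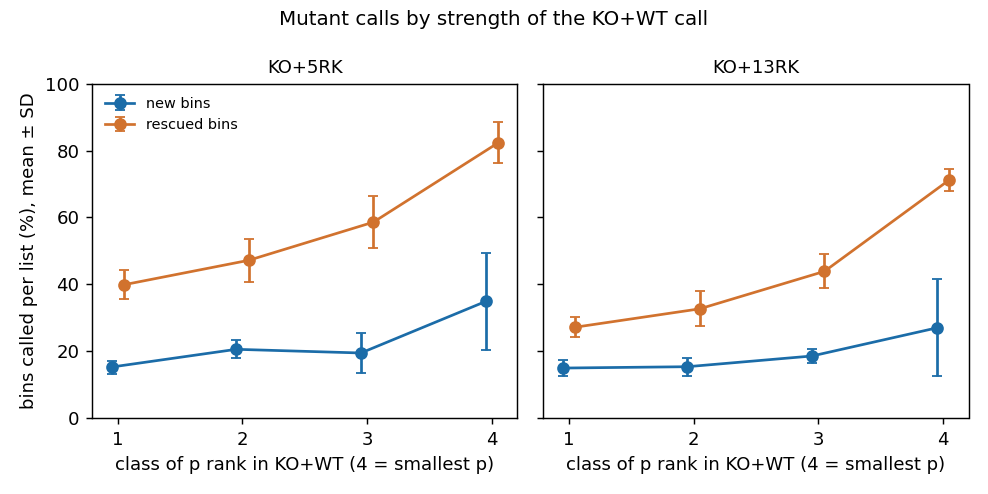
Bins called per mutant list (%, y axis; means of 3 lists with SD) in 4 classes of the KO+WT p rank (x axis, 4 holds the smallest p), for KO+5RK (left) and KO+13RK (right). New bins lie below rescued bins in each class, and the wide bars in class 4 belong to 21 new bins.

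The new bins lay next to a WT bin less often than other bins did, a description since the rule used the WT lists. On the same strand, 265 adjoined a bin of a WT list without a gap and 26 overlapped one that starts at another position, together 291 (42.5%). A further 109 (15.9%) lay within a gap of 1 to 500 nt and 285 (41.6%) farther away. Of rescued bins 88.1% overlapped or adjoined another WT bin, and of all bins in 2 or 3 KO+WT lists 76.7%. KO+5RK lists called 20.4% ± 2.29 of the adjoining or overlapping new bins and 16.3% ± 3.46 of those over 500 nt away, and KO+13RK lists 15.8% ± 2.09 and 15.3% ± 2.34 (SD, n = 3). The ranges given by these SDs overlapped, and the difference was not tested. With no WT or KO bin allowed within 500 nt, 248 new bins remained.

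**Figure D4:**
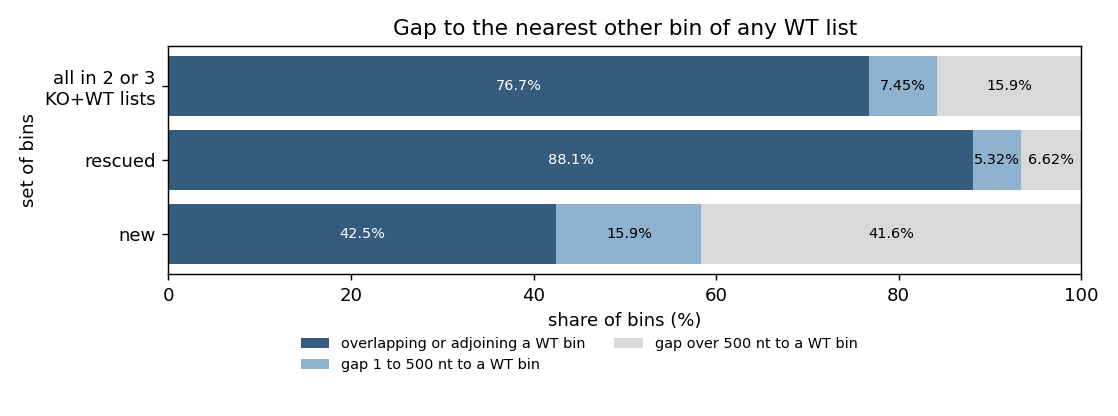
Share of bins (%, x axis) by the gap to the nearest other bin of any WT list on the same strand, for the new bins, the rescued bins and all bins in 2 or 3 KO+WT lists. Of new bins 42.5% overlap or adjoin a WT bin and 41.6% are more than 500 nt from any, against 88.1% and 6.62% of rescued bins.

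For some new bins the strand, and with it the gene, is uncertain. A bin of the opposite strand overlapped 99 new bins (14.5%) in any list, against 12.7% of rescued bins, and for 90 of the 99 it was in the same KO+WT list. At 1 locus on chromosome 3 the new bin of Lix1l on the plus strand (2.63, 1.95 and 2.60 in the KO+WT lists) lay over that of 6330549D23Rik on the minus strand (2.57, 2.01 and 2.60). On chromosome 4 the 3 new bins of the zinc finger gene Zfp981 lay on the opposite strand to those of Gm26573, which also had 3. These pairs cannot be counted as separate sites. Without the 78 new bins that overlap a WT or KO bin on either strand, 607 remained, and new minus rescued bins came to -35.6 points in the mutant lists.

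Along the gene, new bins lay near the start more often and near the end less often than rescued bins. Both shares were close to those of all bins in 2 or 3 KO+WT lists. That last set also holds bins with a KO call, which the new and the rescued bins leave out. RefSeq spans could place 612 of the 685 (89.3%). Near the gene start, within 500 nt, lay 41 (6.7%), against 1.06% of rescued bins and 5.47% of all bins in 2 or 3 KO+WT lists. Near the gene end, within 2000 nt, lay 172 (28.1%), against 37.3% and 32.1%. Genes annotated as long noncoding RNA held 32 of the placed bins (5.23%), against 1.69% and 2.12%. Those near the gene start were called in 20.3% ± 3.73 of cases per KO+5RK list and 16.3% ± 1.41 per KO+13RK list, and those near the gene end in 19.6% ± 2.35 and 14.9% ± 3.87 (SD, n = 3). The differences between these classes were not tested.

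The 685 bins fell in 624 gene entries, of which 575 had a single new bin, 41 had 2 and 7 had 3. Gm20388, with 7, is a predicted gene on chromosome 8 with 438 to 506 bins per KO+WT list and 773 to 864 per WT list, and its new bins lay between 121542742 and 123383441 (GRCm38), so its calls overlap many other genes and are uncertain. In genes with a bin in all 3 WT lists were 334 new bins (48.8%, against 88.9% of all bins in 2 or 3 KO+WT lists). In genes with a bin in 1 or 2 WT lists were 202 (29.5%, against 9.37%), and in genes with no WT bin 149 (21.8%, against 1.77%). The background counts bins that are themselves in WT lists, which the rule takes out of the new bins, so nothing is read from these differences. A bin of the same gene was in a KO list for 377 (55%, against 77.4%). For example, Slc30a1, the zinc exporter ZnT1, had 3 new bins and 3, 1 and 2 bins in the WT lists, and Gnb1l had 3 new bins and 4, 2 and 4 bins in WT. Hydin, a gene of motile cilia, had 3 new bins and 4, 2 and 2 bins in the KO+WT lists but a single bin in 1 WT list.

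In 5 or 6 mutant lists were 13 new bins, and their genes had varied functions. This count was not made for all bins in 2 or 3 KO+WT lists, so it is a description alone. In all 6 were the bins of Cebpb, Yipf5, Klhl24 and Ric3. Cebpb, which encodes the transcription factor C/EBP beta, had its new bin at chr2:167690116-167690215 on the plus strand, 266 nt from the gene end. The enrichment values there were 1.01, 1.02 and 1.12 in KO+WT, 1.00, 1.32 and 1.27 in KO+5RK and 1.09, 1.03 and 1.02 in KO+13RK. It was the only bin of Cebpb in each of these 9 lists, and no WT or KO list had any. The bin of Yipf5, a membrane protein of the early secretory pathway, adjoined a WT bin and had 1.41, 1.75 and 1.33 in KO+WT, 1.55, 1.59 and 1.14 in KO+5RK and 1.95, 1.33 and 1.63 in KO+13RK. Ric3, a chaperone of acetylcholine receptors, was listed in KO+WT replicates 2 and 3 (1.67 and 2.42) and had up to 3.13 in KO+5RK and 3.01 in KO+13RK. Klhl24, a substrate adaptor of a ubiquitin ligase, was listed in KO+WT replicates 2 and 3 (1.12 and 1.30), with 1.33 to 1.47 in KO+5RK and 1.02 to 1.37 in KO+13RK.

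In 5 mutant lists were bins of Coil, Eif1a, Eif5, Mir6409, Poli, Slc2a3, Ubqln2, Wdcp and Zfp24. Eif1a and Eif5 encode initiation factors of translation, and their new bins adjoined a WT bin. The Eif1a bin had low values throughout, 0.79, 0.79 and 0.84 in KO+WT and 0.76 to 1.07 in the mutants. Coil encodes coilin, the scaffold of Cajal bodies, and its bin had 1.02, 0.78 and 1.11 in KO+WT. Poli is a DNA polymerase of lesion bypass, Slc2a3 a glucose transporter and Ubqln2 a shuttle to the proteasome. The bin of Zfp24, a zinc finger factor, had 1.28, 1.32 and 1.44 in KO+WT and up to 2.31 in KO+5RK and 2.04 in KO+13RK.

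At the other end, 27 of the 83 new bins in all 3 KO+WT lists were in no mutant list. The same count was not made for all bins in 3 KO+WT lists, so it is a description alone. The 8 of highest mean enrichment percentile over the KO+WT lists are named here, so their values are large by choice. Nudt6, a hydrolase gene whose transcript is antisense to Fgf2, had 2.60, 2.28 and 2.25 at chr3:37405111-37405210 on the minus strand, 178 nt from the gene end, and had no bin in any WT, KO or mutant list. E130311K13Rik had 1.70, 1.95 and 2.77 and Ubl4a, a subunit of the complex that hands over tail-anchored membrane proteins, had 3.23, 2.53 and 1.80 at a bin outside its RefSeq span. Both genes also had no bin outside KO+WT. Ggps1, a synthase of isoprenoid lipids, had 2.63, 2.40 and 2.56 in KO+WT. Hormad2, a protein of the meiotic chromosome axis, had 2.26, 3.21 and 1.90, and Dcaf5, a substrate receptor of a cullin ligase, had 1.71, 1.92 and 2.99. These 3 genes had other bins in both mutants. The 8 bins include the overlapping pair of Lix1l and 6330549D23Rik, so they are 7 loci.

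**Figure D5:**
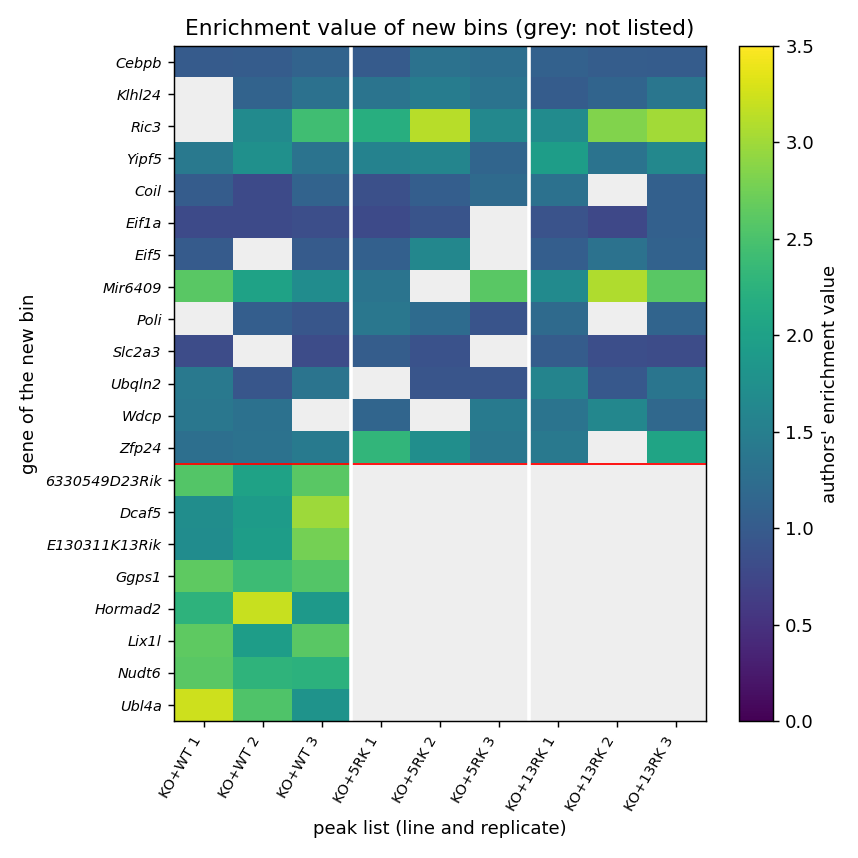
Authors' enrichment value (colour, scale not stated by the authors) of single new bins in the 9 lists of the rescue lines (columns); grey means not listed. Above the red line are the 13 new bins in 5 or 6 mutant lists, and below it the 8 new bins of highest enrichment percentile in all 3 KO+WT lists and no mutant list.

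New bins in genes with no WT and no KO bin numbered 103 (15%, against 0.849% of all bins in 2 or 3 KO+WT lists), in 95 genes. The rule takes bins of WT and KO lists out of the new bins, so nothing is read from this difference. Followed by gene and not by bin, 49 of the 95 had any bin in a KO+5RK list, 46 in a KO+13RK list, and 29 in neither. The same counts were not made for other genes, so they are a description alone. Cebpb was the 1 gene with a bin in all 6 mutant lists. Usp26, a deubiquitinase gene on the X chromosome, had 3 new bins, with 2, 3 and 3 bins in the KO+WT lists, 1, 2 and 1 in KO+5RK and 0 in each KO+13RK list. Its bin at chrX:51756760-51756859 had 1.62, 1.10 and 1.57 in KO+WT and 1.61 and 1.37 in 2 KO+5RK lists. Galnt3, which starts O-linked glycosylation, and Ccdc85a had 2 new bins each, and each had a bin in 1 KO+5RK list and no KO+13RK list. Il13ra1, a cytokine receptor chain, and Stx3, a syntaxin, had 2 new bins each and bins in both mutants.

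The new bins were spread unevenly over the chromosomes. On the X chromosome were 45 of them (6.57%), against 2.68% of all bins in 2 or 3 KO+WT lists, so that 13.8% of those X bins were new, and chromosome 14 had the lowest autosomal share with 6 new bins (1.57% of its bins). The X share of a whole list was 1.73%, 1.73% and 1.75% in WT, 3.42%, 3.33% and 3.38% in KO, and 2.88%, 2.77% and 2.82% in KO+WT. In the mutants, whose lists took no part in the choice, it was 2.69% ± 0.0976 in KO+5RK and 2.9% ± 0.234 in KO+13RK, each above all WT lists (SD, n = 3). This was not tested, since the WT lists took part in the choice of the members. All 4 lines with the deletion thus had a larger X share than WT, and what sets them apart from WT cannot be told apart from the deletion. KO+5RK lists called 23.7% ± 2.57 of the 45 X bins and KO+13RK lists 20.7% ± 2.57 (SD, n = 3). The genes with several new bins there were Usp26, Nexmif, Ubl4a, Il13ra1 and Tsix, among others. Nexmif, a neuronal gene, had 3 new bins, no WT bin and 2 bins in each of 2 KO lists. Tsix, the antisense transcript of Xist, had 2 new bins, both over a bin of the opposite strand in a WT or KO list, so their strand is uncertain.

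Gene groups were read against all 5430 genes with a bin in 2 or 3 KO+WT lists, of which 11.5% had a new bin. Among pluripotency factors 1 of 21 had a new bin, and it was Myc. Its new bin lay at chr15:61989992-61990091 on the plus strand, 319 nt from the gene end and next to a WT bin, with 1.32, 1.25 and 1.48 in KO+WT, 2.34 in KO+13RK replicate 3 and no other mutant call. Sox2, Nanog and Esrrb had bins in all 3 KO+WT lists but no new bin. Pou5f1 had no bin in any KO+WT list, so it could not have a new bin. In the m6A machinery 2 of 18 had a new bin, namely Cbll1, an E3 ligase of the writer complex (1.63 and 1.28 in 2 KO+WT lists, 1.36 in 1 KO+5RK list), and Igf2bp1, an m6A reader (1.10 and 1.06, no mutant list). Mat2a, the gene of the S-adenosylmethionine synthase, had bins in all 3 KO+WT lists but no new bin. Mettl14 had no bin in any KO+WT list and Mettl3 had a bin in 1, so neither could have a new bin. Among the arginine methyltransferases 1 of 10 had a new bin, Prmt6, with 1.57 and 1.35 in 2 KO+WT lists, 1.52 and 1.07 in 2 KO+5RK lists and 1.24 in 1 KO+13RK list.

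In crosslink repair 3 of 18 had a new bin. Fancl, the ubiquitin ligase of the Fanconi complex, had 1.76 and 2.03 in 2 KO+WT lists, with the bin 101 nt from the gene start and no mutant call. Dclre1b, the nuclease Apollo, had 1.32, 1.56 and 1.78 in KO+WT and 1.42 in 1 KO+13RK list. Faap20, a ubiquitin-binding subunit of the Fanconi complex, had 1.40 and 1.44 in 2 KO+WT lists and 1.39 in 1 KO+13RK list. In homologous recombination and checkpoint control 4 of 31 had a new bin. Brca2 had 1.54 and 1.23 in KO+WT and 1.30 in 1 KO+5RK list. Exo1, an end-resecting exonuclease, had 2.64 and 2.35, and Gen1, a Holliday junction resolvase, had 2.02 and 2.70, both with no mutant call. The fourth was Topbp1, an activator of the checkpoint kinase ATR. The shares of these groups, from 4.76% to 16.7%, lay on both sides of the background of 11.5%, and each rests on at most 4 genes with a new bin.

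Of the chromatin modifiers 8 of 60 had a new bin. Ehmt1, a histone H3 methyltransferase, had 1.74, 1.20 and 2.16 in KO+WT and 1.31 and 1.30 in 2 KO+5RK lists. Dnmt1, the maintenance DNA methyltransferase (2.40 and 1.81), and Chd1, a chromatin remodeller (1.88 and 2.77), had calls in 2 KO+WT lists and no mutant list. In the TGF-beta, FGF and Wnt group 6 of 32 had a new bin. They were the receptors Fgfr1 (1.53 and 1.19) and Fgfr2, the FGF inhibitor Spry4, the Wnt repressor Tcf7l1 (1.30 and 1.28, and 1.64 in 1 KO+5RK list), and both chains of the leukemia inhibitory factor receptor, Lifr and Il6st (2.56 and 1.51). The new bins of Chd1 and Fgfr2 lie outside the RefSeq span of the gene and are uncertain. Of the cell cycle and p53 genes 2 of 24 had a new bin, namely E2f2, with 2.13, 2.20 and 1.36 in KO+WT and 1.94 in 1 KO+5RK list, and Trp53, with 1.12 and 0.93 in KO+WT, 0.89 in 1 KO+5RK list and 1.32 in 1 KO+13RK list.

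Long noncoding RNAs had a new bin in 2 of 8, Tsix and Tug1, with 2 bins each. Those of Tug1, a nuclear noncoding RNA, adjoined each other and had 0.84 to 0.96 in the KO+5RK lists and no call in KO+13RK. Of the ribosomal protein genes 2 of 25 had a new bin. Rpsa had 0.80, 1.05 and 0.84 in KO+WT and no mutant call of that bin, and Rpl19 had 1.03 and 1.06 in 2 KO+WT lists and 0.95 in 1 KO+13RK list. Markers of other cell states were mostly without m6A calls in 2 or 3 KO+WT lists. A new bin occurred in 1 of 3 trophoblast markers, the imprinted gene Peg10 (0.93 and 0.92 in KO+WT), and in 0 of 4 primitive endoderm, 0 of 2 primed epiblast, 0 of 1 markers of the 2-cell-like state and 0 of 2 fibroblast markers, while no neural marker had a bin in 2 or 3 lists.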

How the data were processed

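Per the labels' protocols, fragmented messenger RNA was immunoprecipitated with an antibody against m6A, and stranded libraries were sequenced. Named in the submitters' processing notes, with no role, are STAR 2.5.3a, kallisto 0.43.0 and the build GRCm38. For the peak caller, its name is not given in the sources. The authors deposited 15 peak lists, 1 per immunoprecipitated library. Each row is a bin with a gene, an enrichment value (a score of the authors, scale not stated, from 0.31 to 5.82), and the authors' p-value and q-value, with each q under 0.05. Starts are printed 1-based as the file's value plus 1. The 2 miRNA bins then start 1 nt after the RefSeq gene start, so positions may be off by 1 nt.

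With Python 3.11.15, numpy 2.4.6 and pandas 2.3.3, bins were matched by chromosome, start, end and strand. The gene name table matched 623 of the 625 gene IDs of the new bins, and positions used RefSeq spans of GRCm38.p6 within 1000 nt. Of the 73 new bins not placed, 52 had a symbol that the RefSeq table did not match. Percentiles are ranks within a list, where a higher one is a larger enrichment value or a smaller p. Lists, not bins, were the replicates. Tests were exact permutations, 3 lists against 3 or sign flips over 6 lists, adjusted by Benjamini-Hochberg over 9 tests with a threshold of 0.05, and were checked on simulated calls. Most of the 9 tests compared new with rescued bins, on all or on parts of them, so they are not independent. Same-numbered KO+5RK and KO+13RK lists did not deviate together, with correlations from -0.026 to -0.018. The members, the 16 lists of genes and the naming rule (most new bins, 8 at each end of the mutant calls, up to 3 of each list, and 8 genes of the field) were chosen with earlier results of these data known. The 13 bins in 5 or 6 mutant lists, the miRNA and promoter bins, the other listed members of a gene list, and the X chromosome were picked after their values were seen. Alternatives tried were a stricter q, a minimum enrichment value, equal list length, merged bins, distance to WT and KO bins, all 3 KO+WT lists, and leaving out each list.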

Additional observations from a re-analysis of the deposited data

How the results depend on the processing

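The number of new bins was 337 at a q of 0.005 or less, 248 with no WT or KO bin within 500 nt and 83 with all 3 KO+WT lists required, and it ranged from 228 (without KO+WT replicate 2) to 1034 (without WT replicate 1) when single lists were left out. It was 329 without KO+WT replicate 1 and 294 without replicate 3, where 2 of the 2 lists left were required. At equal list length, merged into regions or with a minimum enrichment value it was 553, 647 and 524.

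New minus rescued bins stayed negative in each alternative run. With single lists left out it ranged from -42.1 to -33.8 points (permutation p = 0.0312 to 0.0625), and with 5 mutant lists 0.0625 is the smallest p by construction. Without genes of 3 or more new bins it was -35.3 points. The percentile difference was 5.36 points (permutation p = 0.0625) at the stricter q, 4.45 (permutation p = 0.188) with all 3 KO+WT lists, 5.09 at equal list length and 21.7 with no WT or KO bin within 500 nt (permutation p = 0.0312 for both), and 7.18 to 10.1 with single lists left out (permutation p = 0.0312 to 0.0625). The cause was not tested. KO+5RK minus KO+13RK was -1.87 at equal list length, where the lists called 31% and 32.9% of the new bins, and 0.852 to 4.35 with single lists left out (permutation p = 0.2 to 0.8). With the replicate number as a block the difference was 2.09 points (exact permutation p = 0.5), and the numbers did not pair the lists. Narrower windows placed 3.1% of the bins within 250 nt of the gene start and 14.4% within 1000 nt of the gene end. Depth per bin is unknown, so a missing call cannot be read as a missing mark.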
